A study of Homo sapiens with 40 samples.

Results

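The 10 genes described here make, break down or carry the sugar chains of the pericellular coat of mammary epithelial and breast cancer cells. They were taken by name, as enzymes of hyaluronan turnover and proteoglycans of the cell surface or matrix, and all 10 were found among the 60708 genes of the count files. The choice was made with earlier results of these data known. Shares and medians of the members set beside those of all genes are therefore descriptions only. HAS2 and HAS3 are hyaluronan synthases, HYAL1 and HYAL2 are hyaluronidases, CEMIP and CEMIP2 are hyaluronan-degrading or hyaluronan-binding proteins, SDC1 and SDC4 are syndecans, GPC1 is a glypican and VCAN encodes the matrix proteoglycan versican. RNA-seq counts from 24 libraries in 8 groups of 3 were used. MI Ctrl and MI TGFb were spheres of MCF-10A, an immortalized mammary epithelial line, and MII Ctrl and MII TGFb were spheres of its HRAS-transformed derivative MCF-10AneoT. The TGFb spheres received TGFβ1 at 2.5 ng/ml for 16 h and the Ctrl spheres none. WT and SLUG KO were MDA-MB-231 cells, a triple-negative breast cancer line, grown as monolayers, the latter from cells given Cas9 and a guide against SNAI2 (which encodes SLUG) and expanded from single-cell colonies, with the number of clones behind the libraries not given in the sources used here. Csi and siSMAD2/3/4 were MDA-MB-231 cells transfected with a scrambled siRNA or with siRNAs against SMAD2, SMAD3 and SMAD4. MI and MII each stand for a single line, so a difference between them is a difference between 2 lines.

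Hyaluronan is a long unsulfated polysaccharide that synthases extrude through the plasma membrane, and it is cleared by cell-surface and lysosomal hyaluronidases. Syndecans span the membrane and glypicans are anchored to it by a lipid, and their heparan sulfate chains hold growth factors near their receptors. Versican is a large chondroitin sulfate proteoglycan that binds hyaluronan through its globular end. TGFβ acts through receptor-phosphorylated SMAD2 and SMAD3, which enter the nucleus with SMAD4, and extracellular matrix genes are among its best known targets in epithelial cells.

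In the annotation of the count files (GENCODE 38, build GRCh38), both hyaluronan synthases lie apart, HAS2 at chr8:121612116-121641440 on the minus strand and HAS3 at chr16:69105653-69118719 on the plus strand. HYAL1 at chr3:50299890-50312381 and HYAL2 at chr3:50317790-50322782 are neighbours on the minus strand. CEMIP lies at chr15:80779343-80951776 (plus), CEMIP2 at chr9:71683366-71816690 (minus), SDC1 at chr2:20200797-20225433 (minus), SDC4 at chr20:45325288-45348424 (minus), GPC1 at chr2:240435663-240468076 (plus) and VCAN at chr5:83471618-83582303 (plus). Their exon lengths run from 2613 bases for SDC4 to 14678 bases for VCAN.

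Between 14124688 and 38406952 fragments were assigned to genes per library. Replicates of 7 groups correlated at 0.990 to 0.994, whereas the WT libraries correlated between 0.929 and 0.989, and WT replicate 2 stood apart from the other two, so the tests that use the WT libraries are given with and without it, whereas WT levels and ratios include it. HRAS was measured at 39.6 to 41.4 library-scaled counts (CPM) in MI Ctrl and at 215 to 223 CPM in MII Ctrl. SMAD2, SMAD3 and SMAD4 were lower in siSMAD2/3/4 than in Csi, at 0.264, 0.619 and 0.303 times the level. SNAI2 mRNA was higher, not lower, in the libraries labelled SLUG KO, at 57.7 to 64.3 CPM against 20.9 to 33.7 CPM in WT. The paper reports that its knockout clones were checked by ddPCR and immunoblotting. A count per gene does not show whether the reading frame was broken, so the label could not be checked from these counts. Any direction given for this comparison is that of the libraries labelled SLUG KO. Epithelial markers summed to 938 to 4062 CPM, and KRT5 had no reads in the WT and SLUG KO libraries. Fibroblast markers summed to 13.9 to 14.9 CPM in MI Ctrl and to 31.2 to 31.7 CPM in MI TGFb, and endothelial markers to 114 to 117 CPM in MII Ctrl, of which PECAM1 made up 104.6 CPM on average. In WT the fibroblast markers summed to 48.4 to 87.3 CPM and in Csi to 73.4 to 75.2 CPM, led by COL1A2 at 46.6 and 38.1 CPM on average. DCN, another of these markers, averaged 16.5 CPM in MI TGFb and had no reads in WT and Csi. Every library came from a cell line, and whether the reads of these markers have a part in the results was not tested.

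The 2 syndecans were the most abundant members in the spheres. To compare genes, CPM was divided by the exon length of the gene in kilobases. In MI Ctrl, SDC1 stood at 222 ± 7.18 and SDC4 at 179 ± 3.78 CPM per kb (SD, n = 3), and together they made up 52.0% and 41.8% of the summed level of the 10 members. In MII Ctrl, the order was SDC4 at 123 ± 1.53, SDC1 at 80.6 ± 1.13 and CEMIP2 at 19.4 ± 0.361 CPM per kb. In the WT monolayers, SDC4 at 58.9 ± 8.50 was followed by CEMIP at 46.2 ± 9.96 CPM per kb. HAS2, HAS3, HYAL1 and VCAN stayed at or below 5 CPM per kb in every group, and HAS2 in MII Ctrl was the lowest sphere value of all, at 0.0323 ± 0.0287 CPM per kb.

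**Figure D1:**
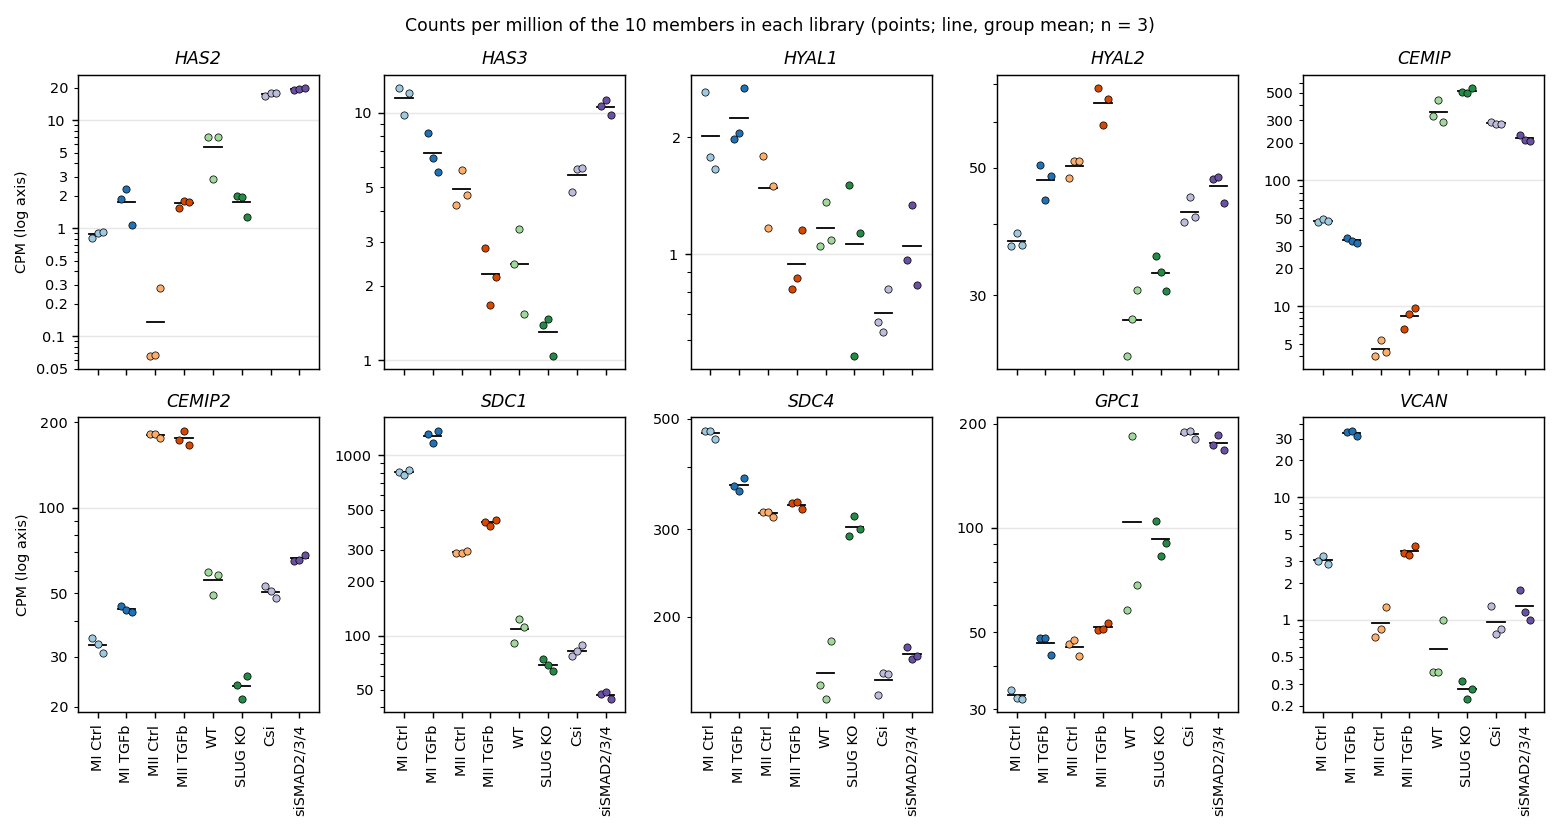
CPM of each member in the 24 libraries (vertical log axis, with its own range in each panel), with 1 point per library, 8 groups on the horizontal axis and a line at the mean of the 3 libraries. CEMIP lies between 4.03 and 9.71 CPM in MII-spheres and above 200 CPM in all MDA-MB-231 libraries, and VCAN stands at 31.5 to 34.9 CPM in MI TGFb and at 4.01 CPM or lower everywhere else.

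The range of levels differed widely between members. The ratio of the highest to the lowest group mean was 144 for HAS2, 123 for VCAN and 112.1 for CEMIP, but 3.14 for SDC4, 3.17 for HYAL1 and 2.38 for HYAL2. For SDC1 all neighbouring groups in the order of means were separated, from MI TGFb down through MI Ctrl, MII TGFb, MII Ctrl, WT, Csi, SLUG KO and siSMAD2/3/4. For HYAL1 none of the 7 neighbouring pairs was separated. The siRNA libraries carry another batch label than the rest, so that levels set across the 2 batches include any difference between them. Among protein-coding genes with a mean of at least 1 CPM, the gene most like each member over the 24 libraries, by Pearson correlation of log2 CPM, was FSTL1 for CEMIP (0.993), MBOAT7 for GPC1 (0.988), COX4I1 for SDC1 (0.986), ARHGDIB for CEMIP2 (0.975), IL1RN for SDC4 (0.972), GAPDH for VCAN (0.965), PSMB2 for HAS2 (0.947), RRAGA for HYAL2 (0.938), PIK3C2B for HAS3 (0.913) and KIZ for HYAL1 (0.843). The points share lines, culture formats and batches, and the values are descriptions only.

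Promoter sequence is shown for the 5 members whose level differed between siSMAD2/3/4 and Csi in the test given further on, as the 250 bases before the RefSeq transcription start (build GRCh38.p14), read 5′ to 3′ on the strand of the gene. Capitals mark matches to 4 motifs searched on both strands, so that a capital run may be the motif or its reverse complement. The first motif, GGGCGG, is known as the GC box. The second, CAGGTG, is the form of E-box that SLUG binds. The third, CAGAC, is a SMAD-binding element. The last, TATAAA, is the TATA box. Positions are counted back from the start site, with the base next to it at -1. HAS3 lies on chromosome 16 (window chr16:69107290-69107539, plus strand), CEMIP on chromosome 15 (chr15:80779120-80779369, plus strand), CEMIP2 on chromosome 9 (chr9:71768514-71768763, minus strand), SDC1 on chromosome 2 (chr2:20225476-20225725, minus strand) and SDC4 on chromosome 20 (chr20:45348425-45348674, minus strand). In the annotation of the count files these windows hold no exon of their own gene, except 27 bases for CEMIP. The HAS3 and CEMIP2 windows nevertheless lie inside the annotated span of their own gene. They come before a start site within the gene and not before its outermost start.
HAS3: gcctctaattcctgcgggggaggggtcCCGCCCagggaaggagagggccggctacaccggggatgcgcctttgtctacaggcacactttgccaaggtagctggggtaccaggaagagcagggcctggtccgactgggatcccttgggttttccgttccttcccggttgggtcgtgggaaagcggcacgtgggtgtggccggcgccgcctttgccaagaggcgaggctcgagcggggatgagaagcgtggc
CEMIP: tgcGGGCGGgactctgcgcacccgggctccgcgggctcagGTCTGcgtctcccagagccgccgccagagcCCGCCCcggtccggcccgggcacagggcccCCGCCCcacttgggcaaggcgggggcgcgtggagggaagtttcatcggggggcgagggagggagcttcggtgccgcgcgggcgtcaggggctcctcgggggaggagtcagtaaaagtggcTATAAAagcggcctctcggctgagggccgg
CEMIP2: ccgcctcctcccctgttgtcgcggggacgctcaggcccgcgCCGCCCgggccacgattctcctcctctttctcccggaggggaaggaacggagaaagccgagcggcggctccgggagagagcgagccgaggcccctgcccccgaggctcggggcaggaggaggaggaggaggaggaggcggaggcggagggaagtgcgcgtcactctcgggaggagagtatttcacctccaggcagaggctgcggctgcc
SDC1: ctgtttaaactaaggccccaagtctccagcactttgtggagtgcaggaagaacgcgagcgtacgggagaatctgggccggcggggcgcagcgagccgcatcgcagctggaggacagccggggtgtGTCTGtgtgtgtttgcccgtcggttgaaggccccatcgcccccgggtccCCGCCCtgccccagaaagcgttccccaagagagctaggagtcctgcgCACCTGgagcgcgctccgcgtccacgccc
SDC4: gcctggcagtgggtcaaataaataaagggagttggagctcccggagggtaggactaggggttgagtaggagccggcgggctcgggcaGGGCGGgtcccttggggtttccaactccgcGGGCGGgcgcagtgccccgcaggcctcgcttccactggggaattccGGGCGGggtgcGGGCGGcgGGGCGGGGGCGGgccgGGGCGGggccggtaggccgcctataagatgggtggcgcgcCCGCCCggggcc

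The SDC4 window held 8 GGGCGG motifs, of which 2 abut each other, and its G and C content was 73.6%. The CEMIP window held 3 GGGCGG motifs, 1 CAGAC motif at -210 and a TATAAA motif at -30. The SDC1 window held 1 GGGCGG motif, 1 CAGAC motif at -125 and 1 CAGGTG motif at -29. A second RefSeq window of SDC1, chr2:20225131-20225380, is not printed because part of it lies in exons of SDC1, and it held 1 GGGCGG motif and none of the other 3. The HAS3 and CEMIP2 windows held 1 GGGCGG motif each and none of the other 3. Of 35116 RefSeq windows of the same length outside chromosome 8, 42.6% held GGGCGG, 17.5% CAGGTG, 38.003% CAGAC and 10.7% TATAAA. Windows on chromosome 8, which holds HAS2, were not used, so that none could be found for HAS2. RefSeq windows were found for the other 9 of the 10 members.

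The response of MI-spheres to TGFβ was led by VCAN, which rose 10.3-fold, while HAS3, CEMIP and SDC4 fell and SDC1, GPC1, CEMIP2, HYAL2 and HAS2 rose by smaller factors. Expression was compared with edgeR's quasi-likelihood test over all genes, a gene was called at a Benjamini-Hochberg adjusted p under 0.05, and a called gene that moved by more than 1 on the log2 scale is termed a DEG. Of the 10 members, 6 were called higher and 3 lower, against 28.7% and 27.4% of the 16863 genes tested, and 1 was a DEG, against 13.6% of all genes. The median log2 fold change of the members was 0.30, and that of all genes -0.02. Scaling by library totals alone, without TMM, moved all fold changes by a median of -0.14 on the log2 scale and took the share of higher genes among all called genes from 51.2% to 34.1%.

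VCAN was measured at 3.01, 3.32 and 2.85 CPM in MI Ctrl and at 34.2, 34.9 and 31.5 CPM in MI TGFb. The 2 groups were far apart, with a log2 fold change of 3.37 ± 0.11 (SE, adjusted p = 2.77e-16). Of VCAN's exonic bases, 3.09% overlap the antisense gene VCAN-AS1. The summed fibroblast markers were also higher in MI TGFb, as given above, and the 4 markers of mesenchymal carcinoma cells, led by FN1, summed to 78.6 to 81.2 CPM in MI Ctrl and to 282 to 313 CPM in MI TGFb, and the part of either in the VCAN result was not tested. SDC1, which carries heparan and chondroitin sulfate, stood at 812, 775 and 824 CPM without TGFβ and at 1305, 1175 and 1367 CPM with it (log2 fold change 0.59 ± 0.05, adjusted p = 1.01e-08). SDC4, the syndecan of focal adhesions, went the other way, from 473, 473 and 456 CPM to 366, 357 and 381 CPM (-0.43 ± 0.05, adjusted p = 2.14e-07). The ratio of SDC1 to SDC4, per kilobase, was 1.24 in MI Ctrl and 2.52 in MI TGFb. GPC1 rose 1.33-fold (0.41 ± 0.07, adjusted p = 4.33e-05), from 32.2 to 34.0 CPM to 43.0 to 48.2 CPM.

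The synthases moved in opposite directions in MI-spheres. HAS3 was measured at 12.6, 9.77 and 11.99 CPM in MI Ctrl and at 8.28, 6.53 and 5.75 CPM in MI TGFb, a log2 fold change of -0.84 ± 0.14 (adjusted p = 2.46e-05). HAS2 was measured at 0.810, 0.914 and 0.934 CPM, and at 1.87, 2.33 and 1.06 CPM with TGFβ. These are low counts, with 21, 19 and 18 fragments in MI Ctrl and 34, 52 and 25 in MI TGFb, a ratio of summed counts of 1.97 with a 95% counting interval of 1.42 to 2.76. The log2 fold change of 0.90 ± 0.32 passed the test (adjusted p = 0.0231), and it no longer did when any library other than MI TGFb replicate 3 was left out, with values between 0.61 and 0.95, or with DESeq2 (0.94) or library totals (0.77). Without MI TGFb replicate 3 it was 1.19, and over all 13 alternatives the adjusted p ran from 0.00154 to 0.131. HAS2-AS1, on the opposite strand, overlaps 5.92% of HAS2's exonic bases. HAS3 likewise shares 7.02% of its exonic bases with DERPC and CHTF8 on the opposite strand.

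Among the proteins of hyaluronan breakdown, CEMIP, which depolymerises hyaluronan outside the cell, fell from 47.2, 49.0 and 47.4 CPM to 35.0, 33.2 and 32.0 CPM (-0.60 ± 0.07, adjusted p = 1.42e-07). Its transmembrane relative CEMIP2 rose from 35.0, 33.1 and 31.0 CPM to 45.2, 43.8 and 42.9 CPM (0.33 ± 0.07, adjusted p = 3.81e-04). The groups did not overlap for either gene, and their ratio per kilobase went from 1.76 to 0.923. HYAL2, a lipid-anchored hyaluronidase, rose 1.21-fold (0.27 ± 0.07, adjusted p = 0.00168), which was lost when scaling by library totals (0.13, adjusted p = 0.0899 in a range of 2.37e-04 to 0.0899). HYAL2 shares 11.5% of its exonic bases with TUSC2 on the same strand. HYAL1, the lysosomal hyaluronidase, was measured at 1.66 to 2.62 CPM and 1.97 to 2.68 CPM, and no difference was detected (0.05 ± 0.24, adjusted p = 0.867).

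In MII-spheres, TGFβ raised HAS2 and VCAN and lowered HAS3, and CEMIP rose where it had fallen in MI-spheres. Here 6 members were called higher and 1 lower, against 29.9% and 27.6% of 16396 genes, and 3 were DEGs, against 10.6%. The median log2 fold change was 0.24 for the members and -0.02 for all genes. Scaling by library totals moved all fold changes by a median of -0.13 and took the share of higher genes among the called from 52.0% to 33.3%.

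HAS2 was counted 1, 2 and 5 times in the MII Ctrl libraries and 23, 27 and 26 times in the MII TGFb libraries, or 0.0661, 0.0669 and 0.277 CPM against 1.56, 1.80 and 1.77 CPM. The ratio of the summed counts was 13.5 with a 95% counting interval of 6.49 to 32.3. The log2 fold change was 3.63 ± 0.48 (adjusted p = 4.52e-09), with 3.15 to 4.51 when single libraries were left out, the highest without MII Ctrl replicate 3, which held 5 of the 8 fragments. Counting intervals here cover counting error only. HAS3 fell from 4.23, 5.85 and 4.66 CPM to 2.84, 1.67 and 2.17 CPM (-1.21 ± 0.20, adjusted p = 1.32e-06). The log2 ratio of HAS3 to HAS2 per kilobase was 3.78 to 6.16 in the MII Ctrl libraries, where it rests on those few HAS2 fragments, and -0.41 to 0.57 in the MII TGFb libraries. VCAN rose from 0.728, 0.836 and 1.28 CPM to 3.52, 3.40 and 4.01 CPM (1.91 ± 0.26, adjusted p = 1.91e-08), a ratio of summed counts of 3.89 (2.87 to 5.33).

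CEMIP was measured at 4.03, 5.38 and 4.33 CPM in MII Ctrl and at 6.63, 8.66 and 9.71 CPM in MII TGFb. All stimulated libraries lay above all unstimulated ones (0.79 ± 0.15, adjusted p = 1.25e-05). SDC1 rose from 289, 289 and 296 CPM to 429, 406 and 436 CPM (0.51 ± 0.04, adjusted p = 1.09e-17). HYAL2 rose from 48.0 to 51.5 CPM to 59.4 to 68.9 CPM (0.32 ± 0.06, adjusted p = 4.85e-06). GPC1 rose 1.11-fold (0.15 ± 0.06, adjusted p = 0.0298), a call that was lost without MII Ctrl replicate 3 (0.11) or MII TGFb replicate 3 (0.14) and with scaling by library totals (0.02), over an adjusted p range of 0.0120 to 0.833. For CEMIP2, at 176 to 182 CPM and 167 to 186 CPM, the difference of -0.07 ± 0.04 did not pass (adjusted p = 0.122), although it did without MII TGFb replicate 2 (-0.11) and under library totals (-0.20). For SDC4 the log2 fold change was 0.02 ± 0.03 (adjusted p = 0.586) and turned to -0.11 with scaling by library totals (adjusted p = 0.00602, in a range of 0.00602 to 0.755). HYAL1 fell short of the threshold (-0.64 ± 0.33, adjusted p = 0.0875), at 12 to 35 counts per library, and passed it with scaling by library totals (-0.77).

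Whether the 2 lines responded differently was tested as the interaction of line and TGFβ over the 12 sphere libraries. The difference is the log2 fold change in MII- minus that in MI-spheres. It was positive for HAS2, CEMIP and SDC4 and negative for VCAN, CEMIP2 and GPC1, so 3 members were called in each direction, against 12.6% and 9.75% of 18591 genes, and 3 were DEGs, against 5.84%. It was 2.75 ± 0.63 for HAS2 (adjusted p = 9.16e-04, and 3.63 without MII Ctrl replicate 3), 1.40 ± 0.15 for CEMIP (adjusted p = 2.58e-09) and 0.46 ± 0.06 for SDC4 (adjusted p = 7.69e-08). It was -1.44 ± 0.27 for VCAN (adjusted p = 6.37e-05), -0.39 ± 0.08 for CEMIP2 (adjusted p = 1.96e-04) and -0.25 ± 0.09 for GPC1 (adjusted p = 0.0454). The GPC1 call was lost when MI Ctrl replicate 2 or 3, MI TGFb replicate 1, MII Ctrl replicate 1 or 2, or MII TGFb replicate 1 was left out, with values of -0.28 to -0.22, and over all 18 alternatives its adjusted p ran from 0.00158 to 0.138. CEMIP was the only member called in opposite directions in the 2 lines. SDC1, HYAL2, HAS3 and HYAL1 did not pass, with differences of -0.07 ± 0.07, 0.06 ± 0.09, -0.37 ± 0.25 and -0.68 ± 0.40. Without MI TGFb replicate 2, SDC1 was called at -0.17 (adjusted p = 0.0376, in a range of 0.0376 to 0.764).

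**Figure D2:**
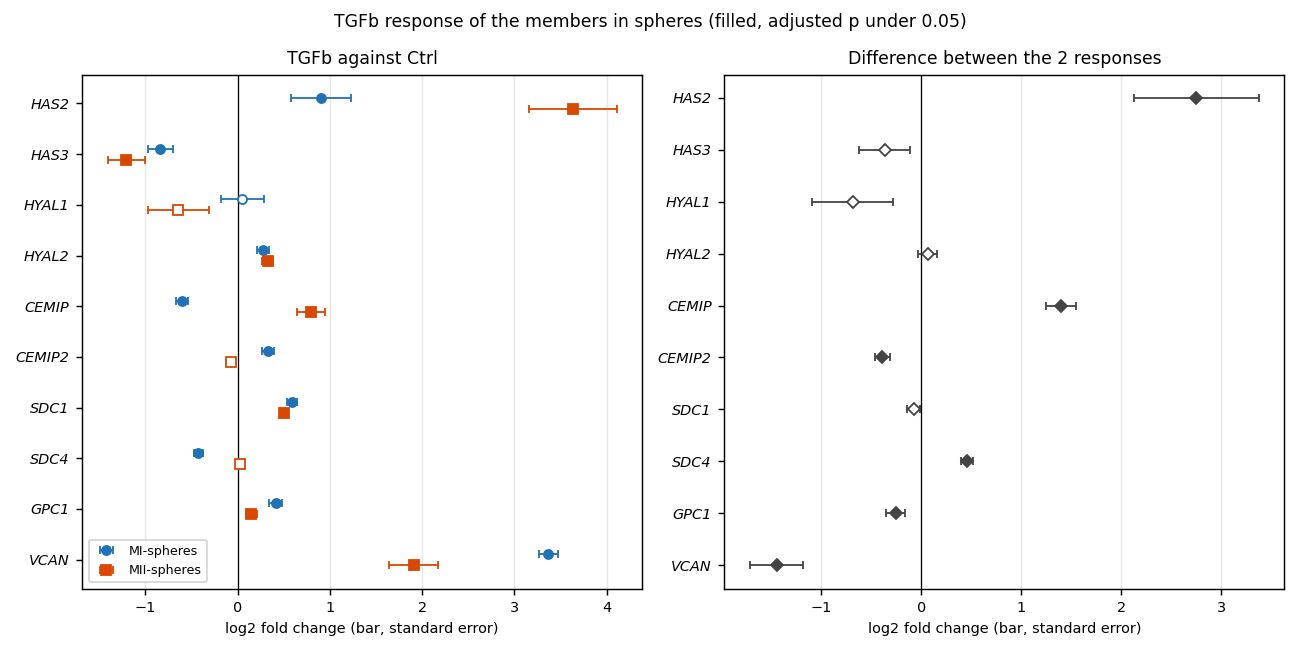
Left, log2 fold change of each member with TGFβ in MI-spheres (circles) and MII-spheres (squares), and right, the difference between the 2 responses (diamonds), with bars for standard errors and filled symbols for an adjusted p under 0.05. CEMIP lies at -0.60 in MI- and 0.79 in MII-spheres, and VCAN at 3.37 and 1.91.

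Unstimulated MII- and MI-spheres differed in 9 of the 10 members, with much less CEMIP, HAS2, VCAN, SDC1 and HAS3 and more CEMIP2 in the HRAS-transformed line. Of these, 3 were called higher and 6 lower, against 31.7% and 32.5% of 17862 genes, and 6 were DEGs, against 20.1%. The median absolute log2 difference was 1.31 for the members and 0.41 for all genes. CEMIP was 0.0997 times as high in MII Ctrl as in MI Ctrl (-3.33 ± 0.09, adjusted p = 5.32e-38), whereas CEMIP2 was 5.47-fold higher, at 181, 182 and 176 CPM against 35.0, 33.1 and 31.0 CPM (2.45 ± 0.05, adjusted p = 6.49e-44). The ratio of CEMIP to CEMIP2 per kilobase was 1.76 in MI Ctrl and 0.0307 in MII Ctrl. Both synthases were lower, HAS3 at 0.445 times (-1.17 ± 0.13, adjusted p = 5.62e-12) and HAS2 with 8 against 58 counts in all, a ratio of 0.144 (0.0595 to 0.304) and a log2 difference of -2.72 ± 0.52 (adjusted p = 7.85e-06). When single libraries were left out the HAS2 difference was -3.61 to -2.24, the former without MII Ctrl replicate 3. VCAN was also lower (-1.69 ± 0.26, adjusted p = 7.30e-08).

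Of the heparan sulfate proteoglycans, SDC1 was lower (-1.45 ± 0.04, adjusted p = 2.64e-39) and SDC4 less so (-0.52 ± 0.03, adjusted p = 1.34e-19), so that the ratio of SDC1 to SDC4 per kilobase was 0.653 in MII Ctrl against 1.24 in MI Ctrl. GPC1 was higher in MII Ctrl (0.48 ± 0.06, adjusted p = 5.05e-10), and so was HYAL2 (0.45 ± 0.06, adjusted p = 1.16e-09). HYAL1 did not pass (-0.50 ± 0.26, adjusted p = 0.0892) except without MI Ctrl replicate 3 (-0.63) or MII Ctrl replicate 1 (-0.64), where the adjusted p was 0.0495 and 0.0461, in a range up to 0.498.

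After stimulation, VCAN, CEMIP2 and CEMIP differed most between the lines, and HAS2 did not pass the test. Stimulated MII-spheres held 3 members higher and 5 lower than stimulated MI-spheres, against 31.1% and 31.6% of 15878 genes, and 6 were DEGs, against 19.8%. VCAN was 0.114 times as high in MII TGFb (-3.13 ± 0.12, adjusted p = 1.41e-16). CEMIP stood at -1.93 ± 0.11, CEMIP2 at 2.07 ± 0.06, SDC1 at -1.52 ± 0.05, HAS3 at -1.54 ± 0.21, HYAL1 at -1.17 ± 0.30, HYAL2 at 0.52 ± 0.07 and GPC1 at 0.23 ± 0.07, with adjusted p between 1.02e-18 and 0.00734. HAS2 was at 1.56 to 1.80 CPM in MII TGFb and 1.06 to 2.33 CPM in MI TGFb (0.04 ± 0.31, adjusted p = 0.925), and SDC4 at 330 to 340 and 357 to 381 CPM (-0.06 ± 0.04, adjusted p = 0.290). The 4 sphere comparisons share libraries pairwise and are therefore not independent of each other.

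**Figure D3:**
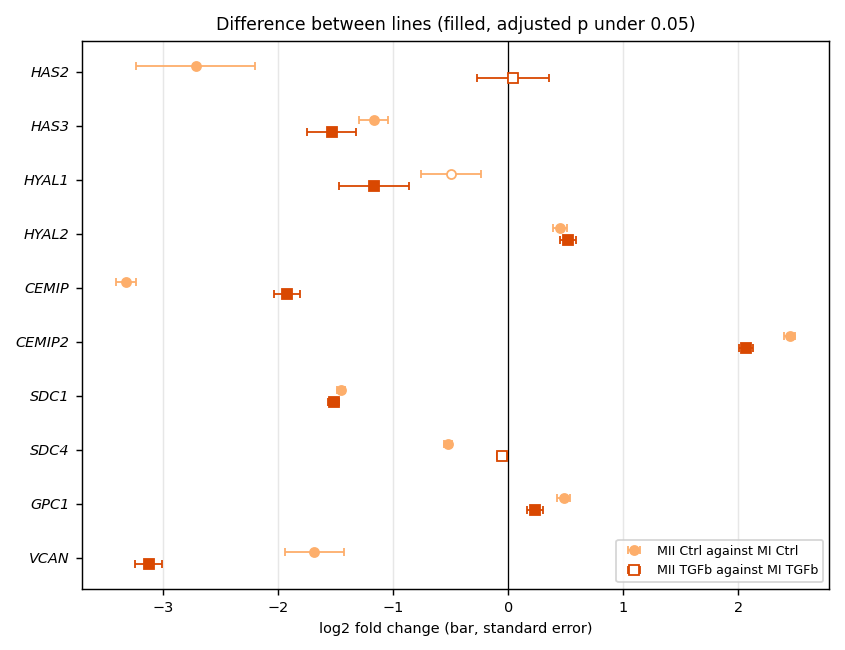
Log2 fold change of each member in MII- against MI-spheres without TGFβ (circles) and with TGFβ (squares), with bars for standard errors and filled symbols for an adjusted p under 0.05. CEMIP2 lies at 2.45 and 2.07, to the right of 0, and CEMIP, SDC1, HAS3 and VCAN lie to the left of it in both.

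In MDA-MB-231 cells, knockdown of SMAD2, SMAD3 and SMAD4 was accompanied by more HAS3 and less SDC1. Here 3 members were called higher and 2 lower, against 16.3% and 19.7% of 17696 genes, and 0 were DEGs, against 1.90%. All 5 called members moved by less than 1 on the log2 scale. HAS3 was measured at 4.79, 5.93 and 5.99 CPM in Csi and at 10.6, 11.2 and 9.74 CPM in siSMAD2/3/4, a 1.88-fold rise (0.91 ± 0.11, adjusted p = 4.14e-08). SDC1 fell from 76.8, 82.7 and 88.2 CPM to 47.7, 48.5 and 44.8 CPM (-0.82 ± 0.05, adjusted p = 6.70e-14). CEMIP fell from 294, 283 and 280 CPM to 231, 211 and 207 CPM (-0.41 ± 0.04, adjusted p = 2.62e-09). CEMIP2 rose from 53.2, 51.03 and 48.0 CPM to 65.0, 65.7 and 68.4 CPM (0.38 ± 0.05, adjusted p = 5.24e-07), and SDC4 from 139, 154 and 154 CPM to 173, 164 and 167 CPM (0.17 ± 0.04, adjusted p = 0.00222). None of these 5 pairs of groups overlapped, but the 5 were picked by their call, so this adds nothing to it. The share of all genes without overlap was not computed.

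HAS2 was far higher in these libraries than in the spheres, which carry another batch label, at 16.8 to 17.8 CPM in Csi and 19.2 to 19.98 CPM in siSMAD2/3/4. The WT libraries of the same line, with the batch label of the spheres, held it at 2.86 to 7.08 CPM. Its difference between siSMAD2/3/4 and Csi did not pass (0.16 ± 0.07, adjusted p = 0.0796). HYAL2 (0.14 ± 0.06, adjusted p = 0.0510), GPC1 (-0.10 ± 0.04, adjusted p = 0.0814), HYAL1 (0.56 ± 0.31, adjusted p = 0.170) and VCAN (0.44 ± 0.29, adjusted p = 0.261) did not pass either. HAS2 passed with library totals (0.18, adjusted p = 0.0479 in a range of 0.0479 to 0.190). HYAL2 passed without Csi replicate 2 (0.19) or siSMAD2/3/4 replicate 3 (0.19), with either other scaling (0.15 and 0.16) and with at least 10 counts in every library (0.15), and GPC1 without siSMAD2/3/4 replicate 2 (-0.13). The file headers carry 2 flow cell codes, one for siSMAD2/3/4 replicates 1 and 2 and another for the remaining 4 libraries, although the batch label is the same for all 6. With that code as a term in the fit, which leaves siSMAD2/3/4 replicate 3 to carry the contrast, the same 5 members were called, with HAS3 at 0.81, SDC1 at -0.88, CEMIP at -0.46, CEMIP2 at 0.44 and SDC4 at 0.17.

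The values of the members after SMAD knockdown can be set beside their TGFβ responses in the spheres, which come from other lines and another culture format. The labels give no TGFβ dose for the siRNA libraries. HAS3 fell with TGFβ in both lines (-0.84 and -1.21) and was higher after SMAD knockdown (0.91). SDC1 rose with TGFβ (0.59 and 0.51) and was lower after knockdown (-0.82). CEMIP stood at -0.60 and 0.79 with TGFβ and at -0.41 after knockdown, CEMIP2 at 0.33, -0.07 and 0.38, and SDC4 at -0.43, 0.02 and 0.17. HAS2 and VCAN, which rose with TGFβ in both lines (0.90 and 3.63, and 3.37 and 1.91), stood at 0.16 and 0.44 after knockdown and did not pass. HYAL2 and GPC1 also rose with TGFβ in both lines (0.27 and 0.32, and 0.41 and 0.15). They stood at 0.14 and -0.10 after knockdown and did not pass. HYAL1, at 0.05 and -0.64 with TGFβ and 0.56 after knockdown, passed in none of these.

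The libraries labelled SLUG KO held less CEMIP2 and more SDC4 than WT. These were the 2 members called of the 9 tested, 1 higher and 1 lower, against 1.45% and 1.89% of 17428 genes, and 1 was a DEG, against 3.05%. CEMIP2 was measured at 59.5, 49.4 and 58.2 CPM in WT and at 23.9, 21.4 and 25.7 CPM in SLUG KO (-1.26 ± 0.17, adjusted p = 0.0118). SDC4 was measured at 146, 137 and 179 CPM in WT and at 291, 319 and 300 CPM in SLUG KO (0.95 ± 0.17, adjusted p = 0.0301). Both groups were well separated, yet each call was lost when WT replicate 1 or any of the SLUG KO libraries was left out, with CEMIP2 between -1.31 and -1.18 and SDC4 between 0.93 and 1.00. Over all 12 alternatives the adjusted p ran from 7.00e-08 to 0.123 for CEMIP2 and from 5.88e-06 to 0.191 for SDC4.

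WT replicate 2 decided what else was called. GPC1 stood at 58.0, 185 and 68.5 CPM in the 3 WT libraries and at 104.6, 82.9 and 90.7 CPM in SLUG KO, and HAS2 at 7.02, 2.86 and 7.08 CPM in WT and at 1.99, 1.96 and 1.27 CPM in SLUG KO. Without WT replicate 2, 31.2% of all genes were called instead of the shares above, and 6 of the 10 members then tested were called, 2 of them as DEGs. The share of DEGs among all genes was not computed without that library. HAS2 was lower (-2.02 ± 0.21, adjusted p = 2.84e-06), as were CEMIP2 (-1.33 ± 0.10) and SDC1 (-0.56 ± 0.10), and SDC4 (0.89 ± 0.10), CEMIP (0.72 ± 0.10) and GPC1 (0.54 ± 0.10) were higher. With all 6 libraries, the values were -1.72 ± 0.40 for HAS2 (adjusted p = 0.0744), -0.68 ± 0.18 for SDC1 (adjusted p = 0.101), 0.52 ± 0.20 for CEMIP (adjusted p = 0.232) and -0.19 ± 0.43 for GPC1 (adjusted p = 0.831), the last with the opposite sign. HAS2 was in addition called with all 6 libraries by DESeq2 (adjusted p = 0.00587) and without the low-count filter (adjusted p = 0.0146), in a range of 2.84e-06 to 0.322. HAS3 (-0.95 ± 0.36), HYAL2 (0.25 ± 0.17) and HYAL1 (-0.16 ± 0.40) did not pass with or without that library. VCAN, at 19 and 44 counts per group, was too low to be tested with all 6 libraries and did not pass without WT replicate 2 (-1.31 ± 0.54, adjusted p = 0.0794).

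**Figure D4:**
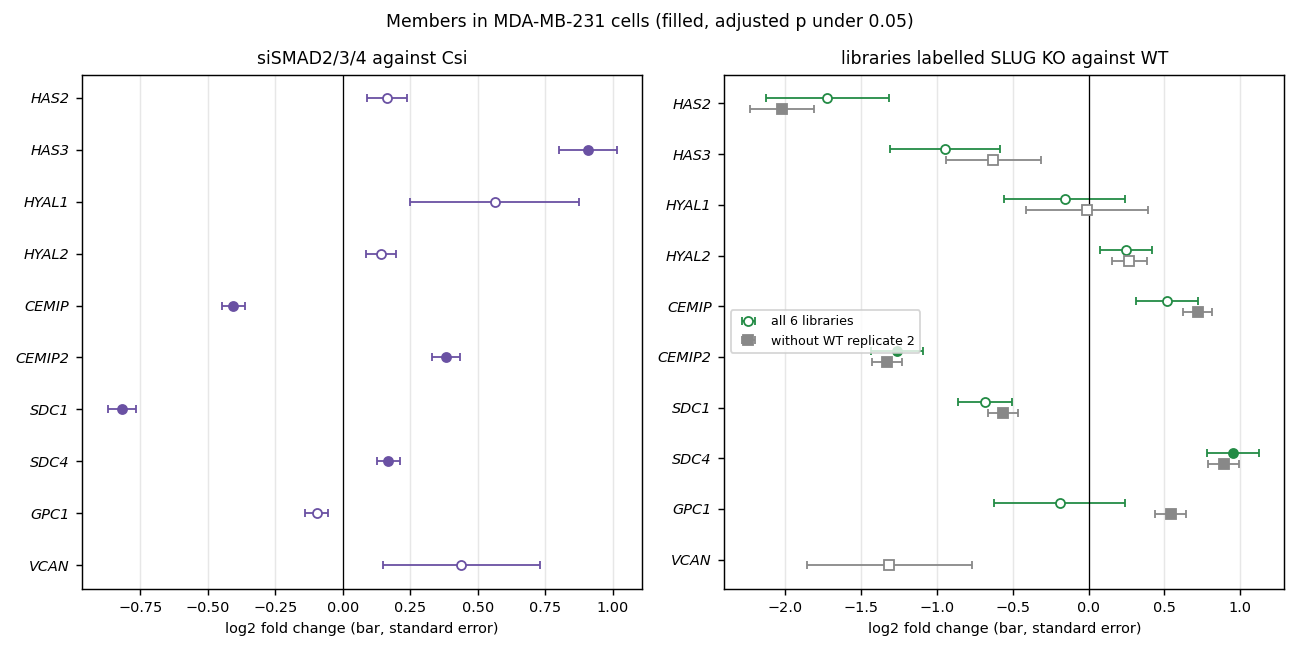
Log2 fold change of each member in siSMAD2/3/4 against Csi (left) and in the libraries labelled SLUG KO against WT (right, with all 6 libraries as circles and without WT replicate 2 as squares), with bars for standard errors and filled symbols for an adjusted p under 0.05. GPC1 moves from -0.19 to 0.54 when WT replicate 2 is left out, and VCAN is shown on the right only without it, at -1.31.

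WT MDA-MB-231 monolayers differed from unstimulated MI-spheres in 8 of the 10 members, a contrast in which the line and the culture format cannot be told apart. There were 4 members higher and 4 lower, against 28.1% and 25.9% of 18732 genes, and 7 were DEGs, against 44.5%. CEMIP was 7.33-fold higher, at 324, 438 and 294 CPM against 47.2, 49.0 and 47.4 CPM (2.87 ± 0.21, adjusted p = 3.56e-05), and HAS2 6.34-fold higher (2.66 ± 0.41, adjusted p = 0.00119). SDC1 was at 90.7, 124 and 111.6 CPM, 0.135 times the level of MI Ctrl (-2.89 ± 0.19, adjusted p = 2.40e-05). SDC4 (-1.61 ± 0.17), HAS3 (-2.23 ± 0.32) and VCAN (-2.39 ± 0.42, and -3.04 without WT replicate 3) were also lower, and CEMIP2 was higher (0.75 ± 0.16, adjusted p = 0.00676, and 0.80 ± 0.08 without WT replicate 2).

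GPC1 was higher by 1.65 ± 0.44 (adjusted p = 0.0155), and by 0.91 ± 0.08 without WT replicate 2. Its call was lost without MI Ctrl replicate 1, 2 or 3 (1.60 to 1.65), and that of CEMIP2 without MI Ctrl replicate 2 or 3 (0.72 and 0.67). Without WT replicate 2, 74.9% of all genes and all 10 members were called. Of the members, 6 were DEGs, and the share of DEGs among all genes was not computed for that fit. These DEGs were HAS2 at 2.96, HAS3 at -2.55, CEMIP at 2.66, SDC1 at -3.02, SDC4 at -1.56 and VCAN at -2.19. HYAL1 and HYAL2 were then called at -0.97 and -0.49, against -0.80 ± 0.30 (adjusted p = 0.0561) and -0.46 ± 0.17 (adjusted p = 0.0533) with all libraries, and HYAL2 also without WT replicate 3 (-0.57).

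The balance within the 2 pairs of relatives was also computed in each library. The log2 ratio of SDC1 to SDC4 per kilobase was 0.24 to 0.39 in MI Ctrl and 1.25 to 1.38 in MI TGFb, -0.64 to -0.57 in MII Ctrl and -0.21 to -0.06 in MII TGFb. It was -1.15 to -0.61 in WT, -2.70 to -2.44 in SLUG KO, -1.37 to -1.27 in Csi and -2.36 to -2.23 in siSMAD2/3/4. The log2 ratio of CEMIP to CEMIP2 was 0.71 to 0.89 in MI Ctrl, -0.14 to -0.09 in MI TGFb, -5.21 to -4.80 in MII Ctrl and -4.42 to -3.82 in MII TGFb. In the MDA-MB-231 groups it was above 0, at 2.62 to 3.43 in WT, 4.68 to 4.81 in SLUG KO, 2.75 to 2.82 in Csi and 1.88 to 2.11 in siSMAD2/3/4. For both ratios the groups of each comparison within a line did not overlap.

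**Figure D5:**
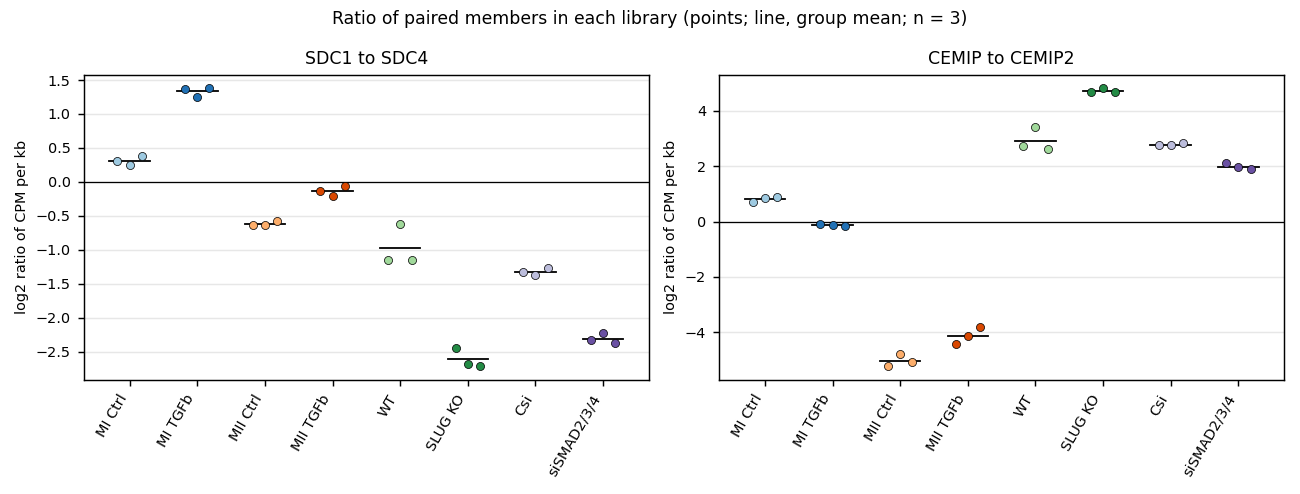
Log2 ratio of CPM per kilobase of SDC1 to SDC4 (left) and of CEMIP to CEMIP2 (right) in each library (points), with 8 groups on the horizontal axis and a line at the mean of 3 libraries. The left ratio is above 0 in MI-spheres only, and the right ratio is below -3 in MII-spheres only.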

How the data were processed

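RNA was sequenced from 24 libraries, and 16 chromatin accessibility samples of the series were not analysed here. Per the file headers and the methods, the authors used Trimmomatic for trimming and two-pass STAR for alignment against GRCh38, and deposited raw fragment counts per gene from featureCounts 2.0.0 over GENCODE 38 exons. Only pairs mapped at both ends with a mapping quality of at least 30 were counted. Strand was ignored although the kit is stranded, and fragments over exons of more than 1 gene were not counted, so genes with overlapping exons or an antisense partner are less certain. Gene names were found for 60463 of 60708 IDs (99.6%).

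Counts were tested with edgeR 4.0.16 (quasi-likelihood test, TMM scaling, filterByExpr, Benjamini-Hochberg over all genes tested) in R 4.3.3, each comparison on its own libraries and the interaction on all 12 sphere libraries. Levels are CPM after TMM over the 24 libraries, and log2 CPM for likeness used a prior count of 2. The script was tested on simulated data. Alternatives were other scalings, other low-count filters, DESeq2 1.42.0, a replicate block, leaving out each library, 1 fit over all sphere libraries and the flow cell code as a term. The text names all members in every comparison, the targeted genes as checks, and for each member the gene most like it of the 2 listed. From 9 other pathway lists, up to 2 genes per direction, list and comparison with the smallest adjusted p among DEGs were listed. Only some of these are named in the text. The members and lists were chosen with earlier results of these data known. Nothing in the labels says whether replicates came from separate cultures, so p-values measure the spread between these libraries, which may be technical. In bulk RNA, fewer cells of a type and less RNA per cell cannot be told apart. Promoter sequences and start sites are from RefSeq, GRCh38.p14. Results of some genes used as checks are not reported here.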

Additional observations from a re-analysis of the deposited data

Results flagged for a closer look

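The TGFβ response differed between MII- and MI-spheres for 6 of the 10 members by the test of the interaction of line and TGFβ, 3 in each direction, against 12.6% of all genes called higher and 9.75% called lower. The log2 fold change in MII- minus that in MI-spheres was 2.75 for HAS2, 1.40 for CEMIP and 0.46 for SDC4, and -1.44 for VCAN, -0.39 for CEMIP2 and -0.25 for GPC1. In every alternative in which they were tested, the differences of HAS2, CEMIP, SDC4, VCAN and CEMIP2 passed in the same direction. That of GPC1 did not pass in 8 of 18. HAS2 was tested in 17 alternatives, as its counts were too low for the filter of at least 10 counts in every library. The HAS2 value rests on 8 fragments in all over the 3 MII Ctrl libraries, and was 2.27 to 3.63 when single libraries were left out, the highest without MII Ctrl replicate 3.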

How the results depend on the processing

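Of 1054 values of single members under an alternative, 979 kept their direction and their side of the threshold, 35 lost the call, 26 gained one and 14 changed sign. With 3 libraries per group, leaving out 1 can decide a call. The number of member DEGs in MI-spheres was 1, and 1 to 2 when single libraries were left out. For the libraries labelled SLUG KO against WT, 2 members were called, 0 with the replicate block and 0 to 6 when single libraries were left out, and the 1 DEG became 3 without the low-count filter, 2 with DESeq2, 0 with the replicate block and 0 to 2 when single libraries were left out. All genes called in that comparison numbered 581, but 973 without the filter, 260 with at least 10 counts in every library, 1204 with DESeq2, 255 with the replicate block and 133 to 5592 when single libraries were left out, and in WT against MI-spheres they numbered 10107 and, with at least 10 counts in every library, 6527. The members whose sign changed had not passed the test with all libraries. HYAL1 in MI-spheres was -0.090 with library totals and -0.083 to 0.30 with single libraries left out, SDC4 in MII-spheres -0.11 with library totals and -0.015 with at least 10 counts, HAS2 in stimulated MII- against MI-spheres -0.25 to 0.33 with single libraries left out and SDC4 there 0.027 with library totals. HYAL2 in the interaction was -0.027 to 0.091 and HYAL1 in SLUG KO -0.48 to 0.17 with single libraries left out, and GPC1 in SLUG KO was 0.020 with the replicate block and -0.45 to 0.54 with single libraries left out. Replicate numbers did not pair the libraries (correlations of same-numbered deviations from -0.185 to 0.0655), and the replicate block changed the call of 2 members, CEMIP2 and SDC4, both in the SLUG KO comparison. The cause of these changes was not tested. HAS2, HYAL1 and VCAN lay under 100 counts in most sphere libraries, which limits their precision.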

Other observations

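With TGFβ, 28.7% of all genes tested rose and 27.4% fell in MI-spheres, where 13.6% were DEGs, and 29.9% rose and 27.6% fell in MII-spheres. The interaction was called higher for 12.6% and lower for 9.75%, and after SMAD knockdown 16.3% rose and 19.7% fell. The lists hold few genes each, several of their shares lie near these, and nothing particular to a list is drawn from its count.

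Other cell-surface proteoglycans and heparan sulfate enzymes also differed between the spheres. Of 9 other cell-surface proteoglycans, 7 were tested in MI-spheres, where 5 rose with TGFβ, all 5 as DEGs, among them GPC6 (1.94 ± 0.12, adjusted p = 3.53e-11) and SDC3 (1.25 ± 0.12, adjusted p = 2.09e-08). In MII-spheres 3 rose and 2 fell, and the interaction was called for 5 of 7, all negative, with SDC2 at -2.37 ± 0.26. SDC2 stood at 0.594 ± 0.120 CPM in MI Ctrl and 24.7 ± 0.182 CPM in MII Ctrl, a log2 difference of 5.35 ± 0.15 (adjusted p = 1.05e-36). Of 13 genes of heparan sulfate editing and breakdown, 6 rose and 4 fell in MI-spheres, with SULF2, an extracellular 6-O-sulfatase, at 45.9 ± 1.06 CPM in MI Ctrl and 102.98 ± 1.40 CPM in MI TGFb (1.08 ± 0.06, adjusted p = 9.25e-13), and at 260 ± 2.73 CPM in MII Ctrl. HPSE, the heparanase that cuts heparan sulfate, had an interaction of 1.65 ± 0.25 (adjusted p = 2.47e-06).

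Of 14 genes of chondroitin sulfate chain synthesis, 7 of the 13 tested rose and 4 fell in MI-spheres, and 6 of 12 rose and 2 fell in MII-spheres, with CHST11, a chondroitin 4-O-sulfotransferase, at 1.70 ± 0.13 (adjusted p = 1.52e-16) in MII-spheres. Of 18 genes of heparan sulfate chain synthesis, 14 were tested in each line, with 9 rising and 2 falling in MI- and 10 rising and 2 falling in MII-spheres. EXT1, a chain polymerase, was lower in MII Ctrl than in MI Ctrl (-1.28 ± 0.04, adjusted p = 2.96e-34). Of 9 genes of hyaluronan precursor supply, 3 rose and 1 fell in MI-spheres and 4 of 8 rose and 1 fell in MII-spheres, and after SMAD knockdown 2 rose and 6 fell. Of 12 hyaluronan receptors and binding proteins, 5 were tested in MI-spheres, with 3 rising and 1 falling. The latter was TNFAIP6 (-1.33 ± 0.29, adjusted p = 6.79e-04), at 1.82 ± 0.230 CPM in MI Ctrl and 0.755 ± 0.157 CPM in MI TGFb. In MII-spheres 4 were tested, with 3 rising, among them HMMR (1.39 ± 0.14, adjusted p = 2.94e-12). Of 6 linker enzymes, 4 of 5 tested rose in MI- and 2 of 5 in MII-spheres. Of 11 proteases that cut proteoglycans, 3 rose and 1 fell among 8 in MI-spheres and 4 rose among 6 in MII-spheres. Of 4 other hyaluronan synthase and hyaluronidase genes, 1 rose and 1 fell among 3 tested in MI-spheres. The latter was HYAL4 (-1.76 ± 0.39, adjusted p = 6.32e-04), at 1.10 ± 0.221 CPM in MI Ctrl and 0.345 ± 0.0664 CPM in MI TGFb. ADAMTS1, a versican-cleaving protease, was measured at 17.0 ± 1.88 CPM in WT and had no reads in any library labelled SLUG KO.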
